A study of Drosophila melanogaster with 2 samples.

Results

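The tracheal and epidermal regulators described here are 9 protein-coding genes of Drosophila melanogaster: trh, vvl, rib, tgo, bnl, btl, sim, grh and svb. They are a list of gene names set by known function, and no measured value enters the rule, but the list was drawn up with earlier results of these data known. They stand among 13945 protein-coding genes annotated on the 6 chromosome arms. Of the names, 8 matched a symbol of the Ensembl annotation directly, and svb (shavenbaby) is annotated there as ovo (FBgn0003028), the same locus. The study mapped, by chromatin immunoprecipitation and sequencing with an antibody against GFP, where the protein of CG7556 sat on chromatin. The single group was whole embryos of pooled male and female animals, 0 to 24 h old, from 1 transgenic line that stably carries CG7556 with GFP fused at its C-terminal end, in 2 biological replicates. There was no second genotype, treatment or stage to compare with, the control was not analysed here, and many cell types were pooled in each sample. The promoter that drives the tagged protein, and the cells in which it was made, are not given in the labels.

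The tracheal system is the branched tube network that carries air through the fly. The bHLH-PAS protein Trachealess (trh) with its partner Tango (tgo) and the POU protein Ventral veinless (vvl) switch the tracheal programme on in the ectoderm, and the FGF ligand Branchless (bnl) then guides branches whose cells carry the FGF receptor Breathless (btl). Ribbon (rib), a BTB-domain nuclear protein, is needed for tube elongation. Single-minded (sim), another bHLH-PAS partner of Tango, directs the ventral midline of the nervous system. Grainy head (grh) turns on genes of the epidermal barrier and cuticle, and Shavenbaby (svb) directs the hair-like denticles of the epidermis.

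The authors' reproducibility step kept 7184 peaks, here called optimal peaks, from lists of 30000 regions. Each has a summit, the position of its highest enrichment, and a signal, the authors' value per region in units left unstated by the labels and files. Optimal signals ran from 137 to 4859 with a median of 244, and rank 1 is the highest. A replicate's signal is on that replicate's own scale, and at each optimal summit of these genes it was lower than the signal in the optimal list. No read counts come with the lists, so depth is unknown. Positions are 1-based on build dm6. All 9 genes had at least 1 optimal summit within the gene span and 5 kb on either side, against 52.4% of all protein-coding genes, and together they held 18 such summits.

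The sequence at the strongest summits of 5 of these genes is shown first, because their low GC content and the counts of the factors' own motifs are described later. Each run covers the summit and 100 bp on either side, on the plus strand of RefSeq Release 6, which has dm6 coordinates. Capitals mark matches to the motifs listed with the motif counts, and a run all in lower case holds none. Only the sim window holds any.
trh, chr3L:377577-377777: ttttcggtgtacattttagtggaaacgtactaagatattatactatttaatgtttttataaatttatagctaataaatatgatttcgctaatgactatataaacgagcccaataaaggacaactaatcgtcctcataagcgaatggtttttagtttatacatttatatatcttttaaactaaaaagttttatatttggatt
svb, chrX:5046619-5046819: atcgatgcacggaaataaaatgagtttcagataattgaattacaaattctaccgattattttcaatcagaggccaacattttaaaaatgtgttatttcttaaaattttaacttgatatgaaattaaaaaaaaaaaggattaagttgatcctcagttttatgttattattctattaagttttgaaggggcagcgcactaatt
sim, chr3R:13068138-13068338: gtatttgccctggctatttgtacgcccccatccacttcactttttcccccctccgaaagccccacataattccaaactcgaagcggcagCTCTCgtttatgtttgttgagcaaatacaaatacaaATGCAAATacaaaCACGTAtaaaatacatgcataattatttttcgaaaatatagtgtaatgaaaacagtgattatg
bnl, chr3R:19831059-19831259: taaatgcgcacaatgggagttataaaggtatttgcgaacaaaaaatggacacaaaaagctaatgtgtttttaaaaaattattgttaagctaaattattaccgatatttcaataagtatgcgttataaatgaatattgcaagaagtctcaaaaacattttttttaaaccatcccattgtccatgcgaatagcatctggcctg
vvl, chr3L:6797529-6797729: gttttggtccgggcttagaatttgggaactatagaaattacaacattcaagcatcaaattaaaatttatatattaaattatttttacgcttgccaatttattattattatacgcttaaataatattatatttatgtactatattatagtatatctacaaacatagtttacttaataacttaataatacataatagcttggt
The trh window had a GC content of 24.4%, that of svb 26.4%, that of sim 37.8%, that of bnl 30.3% and that of vvl 21.9%. In the sim window the capitals are, from left to right, a GAGA repeat 7 bp from the summit, a POU octamer 25 bp from it and, 38 bp from it, the reverse complement of the element bound by Sim or Trh with Tgo.

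All 18 summits lay in introns or in the flanks of the genes. One within 500 bp of an own start site was present in 2 of 9 genes, against 21.1% of all protein-coding genes. Introns of the genes held 10 summits and the 5 kb flanks 8, and none fell in a coding exon or a UTR of these genes. The same split was not taken over all genes, so it is a description only. For 12 summits the nearest start site, over coding and non-coding genes, was the gene's own. For 6 (33.3%, exact 95% binomial interval 13.3% to 59.0%) it was another gene's, against 64.9% of the 16412 gene and summit pairs counted the same way over all protein-coding genes. That interval covers counting error only, takes the summits as independent and is no test against 64.9%. Of the 18 summits 5 lie in the grh window, and the vvl pair stands 202 bp apart, so the interval may be too narrow. These genes had a median span of 20370 bp, against 2166 bp over all protein-coding genes. The share of 64.9% was not taken by span class, so gene length may enter this difference, which was not tested. The genes with at least 1 summit nearest to their own start site numbered 7 of 9, against 23.8% of all protein-coding genes, and tgo and btl were those without one. Start sites were all over 2000 bp away for 9 of 18 summits, against 35.9% of all optimal summits.

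**Figure D1:**
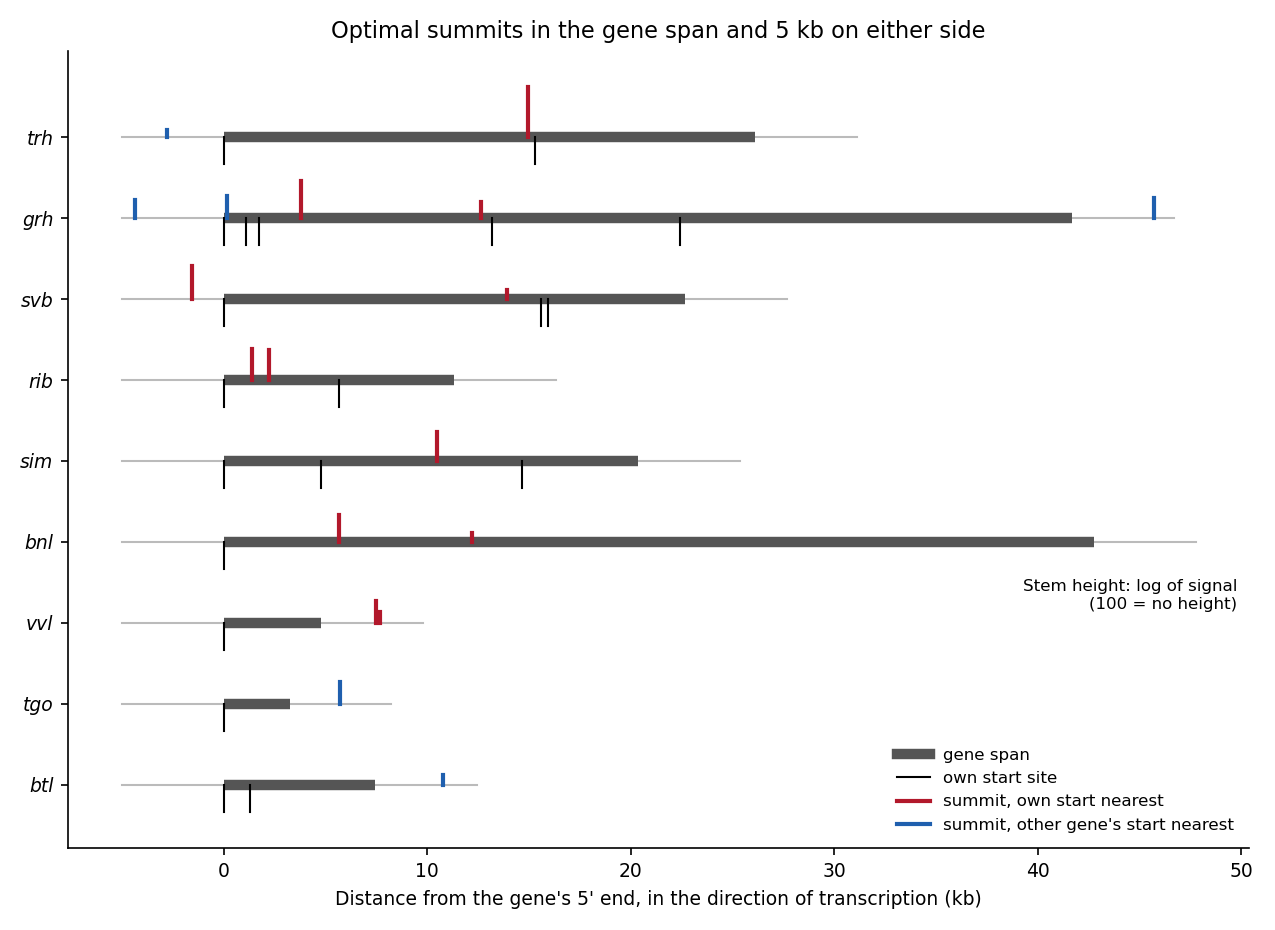
Each row is 1 gene, drawn in the direction of transcription with its 5' end at 0 kb on the horizontal axis, the gene span as a thick bar, the 5 kb flanks as a thin line and start sites as ticks below. Stems mark optimal summits, their height rising with the log of signal from 100, in red where the gene's own start site is nearest and in blue where another gene's is. The 12 red stems belong to 7 genes, and tgo and btl have only a blue one beyond their 3' end.

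Among the transcription factors that set up the trachea, trh carried the strongest summit of all 9 genes. trh (FBgn0262139) lies on the minus strand of 3L from 366524 to 392633, with start sites at 392633 and 377316. The summit at 377677, in a region from 377376 to 378000, had a signal of 1494 in the optimal list and rank 136 of 7184. Its signal was 758 in replicate 1 (rank 142) and 738 in replicate 2 (rank 123), a ratio of 1.03, so both replicates placed it alike. It lay 361 bp upstream of the start site at 377316, which is used by 5 of the 7 annotated transcripts, and inside intron 4 of the transcripts that begin at 392633. The longer transcripts' own start site had no optimal summit closer than 2762 bp. That more distant summit, at 395395, was among the weakest here, with a signal of 148 (rank 6605), 73.8 in replicate 1 and 70.7 in replicate 2, and lncRNA:CR43969 had the nearer start site. A shoulder of the strong trh peak differed between lists: the pooled region with its summit at 377930 had a signal of 74.8 and rank 12987, while the regions within 100 bp of it ranked 2126 in replicate 1 (signal 187) and 1182 in replicate 2 (signal 250).

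The vvl gene had summits only beyond its 3' end. vvl (FBgn0086680) is a gene of 1 exon on the plus strand of 3L from 6790158 to 6794941. Its summits at 6797629 and 6797831 stood 202 bp apart in overlapping regions, 7471 and 7673 bp downstream of the single start site, with no other gene's start site nearer. The first had a signal of 325 (rank 2396), 179 in replicate 1 and 151 in replicate 2. The second had 178 (rank 5336), 105 in replicate 1 and 139 in replicate 2. The stronger of the pair was thus the same in both replicates, while the gap between them was wider in replicate 1. At the vvl start site itself the pooled list held a region 37 bp upstream with a signal of only 59.6 (rank 15696), below the threshold. A further 4 optimal summits lay between 12763 and 29079 bp beyond the 3' end, outside the window, and all had vvl as the gene with the nearest start site. The farthest of them was the strongest, with a signal of 608 (rank 868).

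Tango is the shared partner of Trachealess and Single-minded, and its gene had no optimal summit of its own. tgo (FBgn0264075) runs from 9020022 to 9016773 on the minus strand of 3R and has a single start site. The only optimal summit in its window, at 9014293, had a signal of 320 (rank 2460), 171 in replicate 1 and 148 in replicate 2. It stood 71 bp upstream of a start site of Kcmf1, inside that gene, and 5729 bp from the tgo start. At the tgo start site a pooled region with its summit 15 bp downstream, in the 5' UTR, had a signal of 95.2 (rank 10436) and did not reach the optimal list. The replicates differed there, with 27.5 in replicate 1 (rank 17938) and 71.0 in replicate 2 (rank 7385).

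The rib gene carried a pair of strong summits near its upstream start site. rib (FBgn0003254) lies on the plus strand of 2R from 19270078 to 19281396. The summits at 19271462 and 19272334, 872 bp apart in separate regions, fell in intron 1 of the transcript that starts at 19270078, at 1384 and 2256 bp downstream of that start. The first had a signal of 542 (rank 1057), 299 in replicate 1 and 260 in replicate 2. The second had 515 (rank 1150), 299 in replicate 1 and 225 in replicate 2. In replicate 1 the pair was equal to the digits given, with the second ranked 971 and the first 975, and in replicate 2 the first was the higher. Both summits preceded the start site at 19275732, which serves 2 of the 3 annotated transcripts and had its nearest optimal summit 3398 bp upstream.

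The FGF ligand gene and the FGF receptor gene differed in where summits lay. In bnl, the ligand gene (FBgn0014135, minus strand of 3R from 19794073 to 19836817, 1 start site), both summits were intronic and nearest to the gene's own start. The stronger, at 19831159 in intron 1 and 5658 bp downstream of the start, had a signal of 419 (rank 1616), 197 in replicate 1 and 219 in replicate 2. The weaker, at 19824616 in intron 2, had 160 (rank 6033), and its nearest replicate summits, 113 bp away in replicate 1 and 63 bp away in replicate 2, had 89.4 and 85.2. It was the only one of the 18 without a summit within 100 bp in both replicates. Just upstream of the bnl start site, at 175 bp, a pooled region of signal 120 (rank 8228) fell short of the threshold, with 36.9 in replicate 1 and 74.8 in replicate 2. In btl, the receptor gene (FBgn0285896, plus strand of 3L from 14075772 to 14083229), no pooled region lay within the gene span. Its single summit, at 14086530 and past the 3' end, had a signal of 167 (rank 5756) and was nearer to the start of CG8100, at 2915 bp. That summit had 95.7 in replicate 1 (rank 5194) and 65.1 in replicate 2 (rank 8180), so it would not have been among the 7184 highest regions of replicate 2. Replicate 1 alone listed weak regions inside btl, the higher at rank 18335.

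The midline gene sim had 1 summit, deep within the gene. sim (FBgn0004666) lies on the plus strand of 3R from 13057755 to 13078124 with start sites at 13057755, 13062522 and 13072399. The summit at 13068238 fell in intron 1 of the longer transcripts, 4161 bp upstream of the last start site. It had a signal of 478 (rank 1327), 198 in replicate 1 (rank 1929) and 275 in replicate 2 (rank 996), and its ratio of 0.721 stood at the 11.8 percentile of all matched peaks. No pooled region of any strength had its summit within 500 bp of a sim start site. As printed above, this window held a Trh-Tgo or Sim-Tgo element, a match that describes the sequence and shows no binding by either factor.

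The epidermal regulator grh held the most summits, 5, over the second-longest window. grh (FBgn0259211) lies on the plus strand of 2R from 17801132 to 17842820 and has 5 start sites. The strongest, at 17804959, had a signal of 749 (rank 585), 396 in replicate 1 and 350 in replicate 2, and lay in an intron 2092 bp downstream of the start site at 17802867. The summit at 17801310 had 335 (rank 2288), 176 in replicate 1 and 158 in replicate 2. It was 178 bp downstream of the first grh start site but 159 bp inside asRNA:CR45270, which is transcribed from the opposite strand across that start, so the peak cannot be given to either gene. An intronic summit at 17813776, 568 bp upstream of the start site at 17814344, had 232 (rank 3867), with rank 3669 in replicate 1 and rank 4723 in replicate 2. The other two stood in neighbours. That at 17796776 (signal 263, rank 3239) was inside Dhit, with 117 in replicate 1 and 144 in replicate 2. It also lay in an exon of asRNA:CR45270. That at 17846855 (signal 298, rank 2719) was 156 bp inside olf186-M, within an intron of the calcium channel gene Orai. The olf186-M summit was the least even of the 18, with rank 4910 in replicate 1 and rank 1716 in replicate 2, and a signal ratio of 0.499 at the 3.07 percentile of all matched peaks.

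The svb locus had its stronger summit upstream of the gene. svb (ovo) lies on the plus strand of X from 5048273 to 5070929, with start sites at 5048273, 5063844 and 5064233. The summit at 5046719, 1554 bp upstream of the first start site, had a signal of 595 (rank 904), 324 in replicate 1 and 267 in replicate 2. A weaker summit at 5062189 fell in intron 1 of the longer transcripts, 1655 bp upstream of the second start site. It had 159 (rank 6070), 92.3 in replicate 1 and 68.0 in replicate 2. Both also lay in an intron of lncRNA:CR44833, which overlaps the locus from the opposite strand. Outside the window, 6602 bp upstream of the gene, a further summit nearest to the svb start had 261 (rank 3255).

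**Figure D2:**
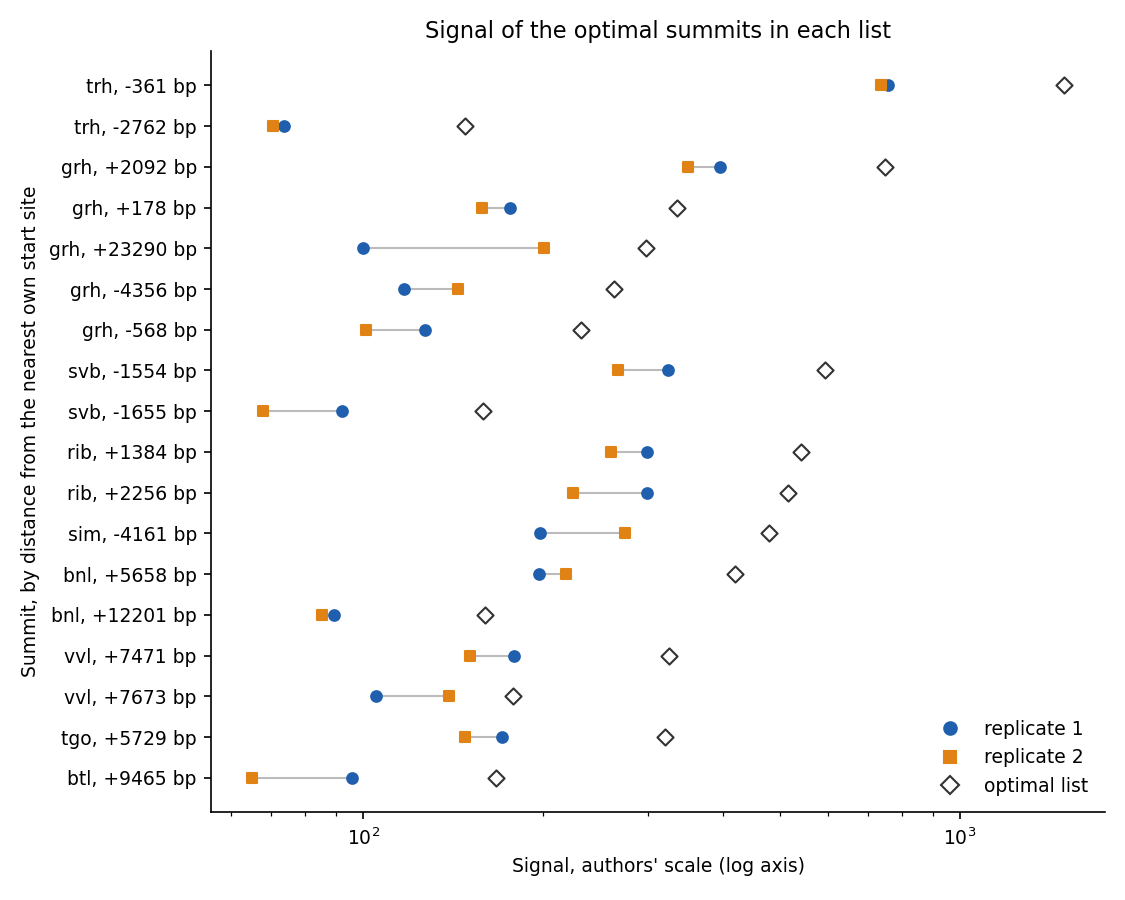
The horizontal axis is the signal on the authors' scale, as a log axis, and each row is 1 of the 18 optimal summits, labelled with its gene and its distance from the nearest own start site (negative is upstream). Circles are replicate 1, squares replicate 2 (the nearest summit in each list) and open diamonds the optimal list. The strongest trh summit stands to the right of all others in both replicates, and the grh summit at +23290 bp has the widest gap between them.

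A summit within 500 bp of an own start site was present in 2 of 9 genes, trh and grh, against 21.1% of all protein-coding genes. Among the 7184 highest regions of replicate 2 alone it was present in 4, with bnl and rib added. By start sites, 2 of 20 had one, against 19.5% of 19607 protein-coding start sites. Counting pooled regions of any strength, 9 of 20 had one, against 42.5%. The share of genes and the share for pooled regions were near their background, and that of start sites with an optimal summit was lower. The grh promoter summit is the one shared with asRNA:CR45270, so trh alone had a promoter summit nearest to its own start.

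Genes with long spans have more room for summits, so the counts were set beside genes of like span. All 3 genes under 10 kb (vvl, tgo, btl) had an optimal summit in the window, against 49.0% of 11968 genes of that class. All 4 genes of 10 to under 30 kb (trh, rib, sim, svb) had one, against 70.5% of 1314. Both genes of 30 kb and more (grh, bnl) had one, against 78.4% of 663. Summits nearest to the gene's own start were present in 1 of the 3 shortest genes, against 18.9%, in 4 of the 4 of middle span, against 49.7%, and in 2 of the 2 longest, against 59.7%. The mean number of summits was 1.33, 1.75 and 3.50 in these genes from the shortest to the longest class, against 0.948, 2.07 and 3.54 in all genes of the class. In the 2 longer classes the numbers of summits per gene were thus close to or below those of other genes of similar span. Across all 9 windows there were 0.666 optimal summits per 10 kb, against 0.537 over the 6 arms.

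**Figure D3:**
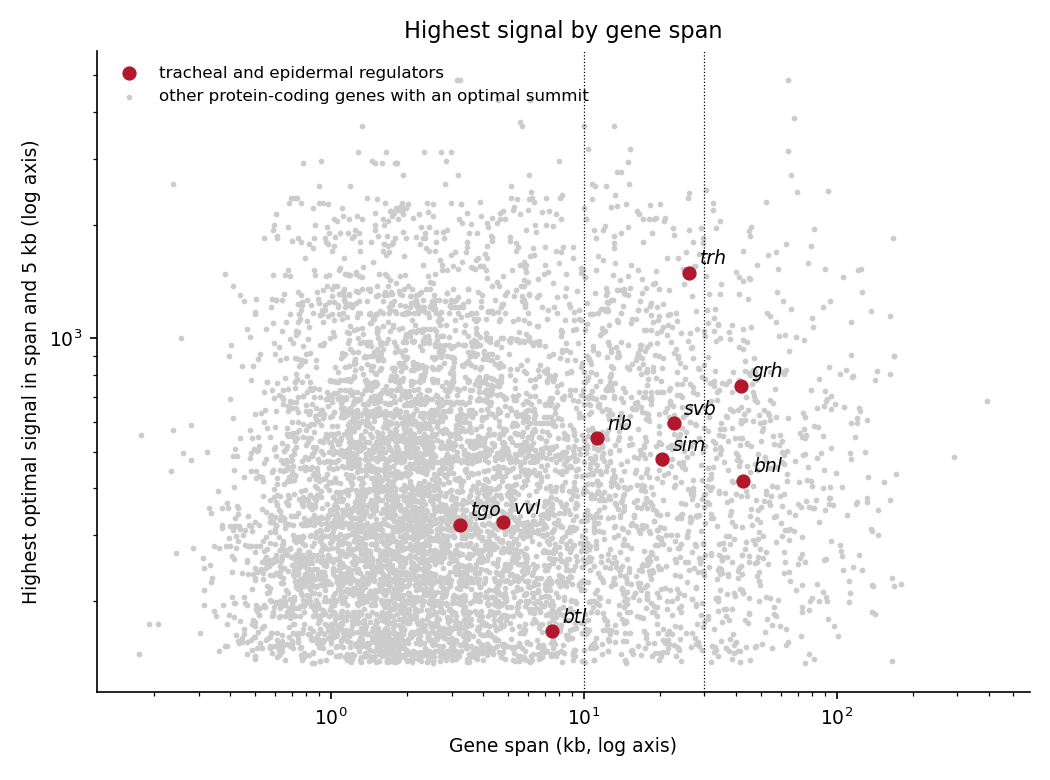
The horizontal axis is the gene span in kb and the vertical axis the highest optimal signal within the span and 5 kb on either side, both as log axes. Red points are the 9 genes and grey points all other protein-coding genes with an optimal summit, with dotted lines at 10 and 30 kb. Of the plotted genes in the same span class, 6.90% stand above trh and 90.2% above btl.

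By the highest summit in the window the order was trh (1494), grh (749), svb (595), rib (542), sim (478), bnl (419), vvl (325), tgo (320) and btl (167). Among genes of the same span class that had an optimal summit, 6.90% had a higher one than trh, 22.3% than grh, 35.5% than svb, 38.9% than rib, 45.2% than sim, 49.6% than bnl, 53.5% than vvl, 54.7% than tgo and 90.2% than btl. The median of these 9 highest signals was 478, against 361 over all 7314 protein-coding genes with a summit. By span class, from the shortest, the medians were 320, 569 and 584, against 347, 428 and 418, so the 3 shortest genes stood below their class. Over all 18 summits the median signal was 322, against 244 over all optimal peaks, and 12 of 18 lay above the latter.

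Neighbours in that order were compared with the spread between replicates at similar signal. For each gene the spread was the factor that 95% of the 500 matched peaks closest in rank stayed within, and it widened from 1.23 around trh to 2.51 around btl. The trh summit exceeded that of grh 1.91 times in replicate 1 and 2.11 times in replicate 2, beyond the larger spread of the pair, 1.47. No other neighbours in the order differed beyond their spread in both replicates. rib and sim changed places, with a ratio of 1.51 in replicate 1 and 0.945 in replicate 2. tgo exceeded btl 1.79 and 2.27 times, within a spread of 2.51. The whole range, trh over btl, was 7.92 times in replicate 1 and 11.3 times in replicate 2.

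Over the 17 summits matched within 100 bp in both lists, the ratio of replicate 1 to replicate 2 ran from 0.499 to 1.47 with a median of 1.13. Over all 6771 matched optimal peaks the median was 1.08, and the 5th and 95th percentiles were 0.565 and 1.70. The olf186-M summit alone of the 17 lay outside that range. In 8 of the 9 windows the strongest region was the same summit in the pooled list and in both replicates. The exception was rib, whose nearly equal summits changed places in replicate 1.

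**Figure D4:**
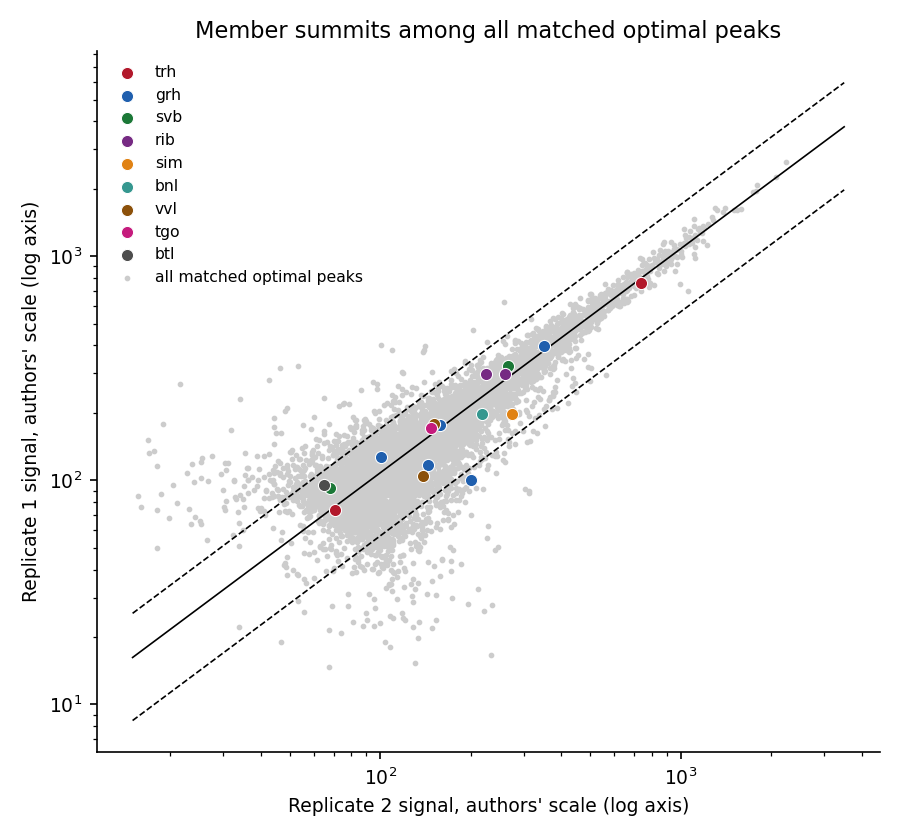
Replicate 1 signal is plotted against replicate 2 signal, both on log axes, for the 17 matched summits of the 9 genes (coloured by gene) and all 6771 matched optimal peaks (grey). The solid line is the median ratio and the dashed lines the 5th and 95th percentiles. The strongest trh summit is the highest of the coloured points and lies just below the median line, and a grh summit, that in olf186-M, falls below the lower dashed line.

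Below the threshold the windows held many weaker regions. The pooled list had 65 further regions there, of which 53 overlapped no optimal peak. They were most numerous in bnl, with 15 such regions, and btl had none. Their highest signals were 129 in grh, 120 in bnl, 119 in rib, 95.2 in tgo, 92.9 in trh, 62.1 in vvl, 61.6 in sim and 37.7 in svb, all below the lowest optimal signal of 137.

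The windows of these summits were AT-rich. Over the summit and 100 bp on either side the GC content had a median of 28.9% over the 18 summits, from 21.9% to 47.3%, against 33.3% over all optimal summits and 38.3% over the 19876 sub-threshold regions, those of the pooled list outside every optimal peak. The 6 arms as a whole have 42.2%. Of the 18, 16 were below the value of the arms, against 85.3% of all optimal windows. The 2 exceptions were the Kcmf1 promoter summit in the tgo window (47.3%) and the second vvl summit (45.8%), which stood 202 bp from the first, with 21.9%.

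Each motif of the factors these genes encode was in at most 1 of the 18 windows, while its share of all optimal windows ran from 2.31% to 23.8%. The share in the 18 windows was above that of all optimal windows for TACGTG and ATGCAAAT. It was below for ACGTG, AACCNGTT and CNGTTA. The search counted exact matches on either strand within 100 bp of the summit. TACGTG, the element of Trh or Sim with Tgo, was in 1 of 18 windows (5.56%), that of sim, against 3.72% of all optimal windows and 4.27% of sub-threshold windows. ACGTG, the core contained in it, was in the same 1 window, against 12.5% of optimal and 14.6% of sub-threshold windows. AACCNGTT, a Grh site, was in none of 18, against 2.31% of all optimal windows. Taking 3 in 18 as an approximate upper limit for a motif not found, its share could be up to 16.7%. CNGTTA, the core of the Svb/Ovo site, was in 1 (5.56%), that of Kcmf1, against 23.8% of optimal and 21.3% of sub-threshold windows. ATGCAAAT, the octamer of POU proteins such as Vvl, was in 1 (5.56%), again that of sim, against 2.84%. GAGAG, bound by the GAGA factor, was in 5 (27.8%), of which 3 were grh windows, against 20.7%. These shares moved with the window: at 200 bp on either side of the summit GAGAG was in 12 of 18 (66.7%), against 43.4%, and CNGTTA in 5 (27.8%), against 41.9%. At 50 bp on either side GAGAG was in 4 (22.2%), against 9.09%, and CNGTTA in none, against 12.6%. None of these motifs was in 12 of 18 windows (66.7%), against 50.2% of all optimal windows. With 18 windows each window weighs 5.56%, no difference was tested, and a window without a match says nothing about the factor.

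Genes related to these regulators by process, tissue or protein family were counted in the same way. Of 58 such genes in 5 lists, 36 (62.1%) had an optimal summit in the window, against 52.4% of all protein-coding genes. Their median span was 13043 bp, against 2166 bp, and the share among genes of 10 to under 30 kb was 70.5%. These lists were assembled with earlier results of the data known and are a description only. By list the counts were 7 of 12 for tracheal branching genes, 7 of 13 for tube and barrier genes, 9 of 15 for epidermal and denticle genes, 7 of 9 for midline genes and 6 of 9 for other bHLH-PAS genes. The last list also holds per, a PAS gene counted with that family.

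Within the branching list the highest summits were those of Mkp3, a phosphatase of MAP kinases (signal 1043, rank 316, 455 bp upstream of a start site), and stumps, the adaptor of the FGF receptors (890, rank 427, 330 bp upstream of a start site). pnt, the ETS factor of the same pathway, held 14 summits with a highest signal of 549, nearer to the start of lncRNA:CR46090. Of the transcription factor genes in this list, kni, knrl, salm, salr and esg had no optimal summit in their windows. Besides pnt, bs (317, nearer to CG44812) and peb (286, 446 bp upstream of a start site) had one. Of the 12 branching genes, 4 had a summit within 500 bp of an own start site, among them stumps, Mkp3 and pnt. The share over all protein-coding genes was 21.1%. The summits of the ligand gene bnl were intronic, and the receptor gene btl had none nearest to its own start.

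Tube and barrier genes with a summit had a median highest signal of 182, against 361 over all protein-coding genes with a summit and 347 over those under 10 kb. Their median span was 5713 bp. A summit nearest to the gene's own start was present in 1 of 13 of them, against 23.8% of all protein-coding genes and 18.9% of those under 10 kb. The count was 5 of 12 for branching, 7 of 15 for epidermal, 6 of 9 for midline and 4 of 9 for other bHLH-PAS genes. Median spans of those lists ran from 10713 to 28142 bp, and the share among genes of 10 to under 30 kb was 49.7%. The 1 tube and barrier gene was mega (annotated as pck), a claudin of the septate junctions (267, 11 bp upstream of a start site). knk (302) and exp (217) had the highest values besides it, both nearer to other genes' starts. In the epidermal list the highest were stit (annotated as Cad96Ca), a receptor tyrosine kinase gene (385), tal (372, nearer to lncRNA:CR43642) and D, a Sox factor gene (359). ple also had 359, to the digits given, nearer to CG8519. Ddc, the dopa decarboxylase that serves cuticle hardening, had 339 at 1004 bp upstream of its start. sha, m, y, dyl, neo and SoxN had no optimal summit in their windows.

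Of the midline genes S (Star) had the highest summit (711, rank 637), followed by NetA (595, nearer to sbm) and NetB (417, nearer to hog), which encode Netrin guidance cues. The bHLH-PAS list reached the highest value, 1634 (rank 108) at gce, a juvenile hormone receptor gene, where asRNA:CR44429 had the nearer start. tai, a coactivator gene, followed with 653 at 104 bp upstream of a start, and sima, the fly HIF alpha subunit and another partner of Tango, with 503. Clk, ss and per had no optimal summit in their windows.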

How the data were processed

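The 9 genes, the related lists and the motifs were chosen with earlier results of these data known. Per the deposited description files, the authors called peaks and background regions from each replicate's alignments with a control, and from both replicates pooled, and thresholded them by IDR. Not given in the sources used here are the aligner, the peak caller and the threshold of IDR. Each region carries a signal value and a summit offset deposited by the authors, and the scale of the signal is not stated. Only dm6 lists were used, on the 6 chromosome arms, which left out 2 regions of replicate 1, and dm3 lists were not used. No region ended past its chromosome in RefSeq Release 6. Depth is unknown. The precision of a value is limited to what 2 replicates give.

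From these lists, summits (region start plus offset) were assigned to genes of Ensembl release 115 (BDGP 6.54), without transposable elements and pseudogenes: 13945 genes that code for protein and 3951 that do not, sharing 23722 start sites. Optimal, pooled and replicate summits were matched within 100 bp. The table of gene windows was tested on planted summits. All 9 genes are named, with up to 3 genes of each related list, those with the highest optimal summit in the window. Ddc, ple, bs, peb and genes without a summit were named after their values were seen. The spread at similar rank was also chosen after that. Both samples are 1 group, so no test between conditions was made and no p-value is given. Python 3.11.15, numpy 2.4.6, pandas 2.3.3 and scipy 1.17.1 were used.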

Additional observations from a re-analysis of the deposited data

How the results depend on the processing

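No paired analysis was possible because both samples belong to 1 group and nothing was compared between groups. The count of 9 genes with an optimal summit in the window was 8 to 9 without either replicate (btl was lost without replicate 1), 8 among the 3592 strongest optimal peaks, 6 with no flank or 2 kb, 7 with nearest own starts, and 9 with 10 kb, RefSeq spans or pooled regions of any signal. The 18 summits became 10 in the gene span alone and 11 with 2 kb on either side, where 8 and 7 flank summits leave, to 12 among the strongest peaks, to 12 with nearest own starts, and to 20 to 21 without either replicate. Promoter summits, in 2 genes, were in 1 with a 200 bp window, 1 with nearest own starts and 2 to 4 without either replicate. The 4 without replicate 1 are the 7184 highest regions of replicate 2, in which regions near the bnl and rib starts rank above that number. Of the related lists, tube and barrier genes fell from 7 to 2 with the gene span alone, epidermal and denticle genes from 9 to 4 and other bHLH-PAS genes from 6 to 3, all by losing flank summits. Tube and barrier genes also fell to 2 among the strongest peaks, which leave out the lower signals of the other 5. The share of summits nearer to another gene's start ran from 22.2% with protein-coding starts to 33.3%. In all, 44 of 53 recomputed values of these counts and shares moved by at most 1.5 times or stayed within their interval. That tally overstates stability, since a fall from 9 to 6 genes counts as unmoved. A 10 kb flank or pooled regions of any signal could not change the count of 9 genes, and the RefSeq spans of these genes equal those of Ensembl. Limits are unknown depth, a control not analysed here, and 18 summits in all.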

Other observations

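Beyond the windows, strong summits stood near several of these genes with other genes' start sites nearest. A summit of signal 1048 (rank 313) lay 15400 bp upstream of rib, nearest to CG33453. One of 902 (rank 415) lay 13961 bp upstream of tgo, nearest to the E3 ligase gene neur, which acts in Notch signalling. One of 897 (rank 419) lay 12822 bp downstream of svb, nearest to CG32767. Around btl, no optimal summit within 30 kb of the gene had a signal above 198. Around sim, the nearest summit outside the window was 13771 bp downstream, with a signal of 137 (rank 7167). These values are given without a test, since which gene a distant summit serves cannot be read from these lists.

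The midline gene rho had no optimal summit in its window, and its highest pooled region had a signal of 137, next to the lowest optimal value, also 137.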
